A study of Mus musculus with 2 samples.

Results

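The 10 genes described here belong to the connective tissue capsule and stroma of the mouse adrenal gland and were read in 2 long-read RNA libraries: the fibrillar collagen genes Col1a1, Col1a2 and Col3a1, the proteoglycan genes Dcn and Lum, the growth factor receptor genes Pdgfra and Pdgfrb, the transcription factor genes Nr2f2 and Gli1, and the secreted signal gene Rspo3. They were chosen by name, and every transcript model that the files assign to these symbols was used. The 10 genes are part of an annotation in which 16945 genes had a read in either library, and 9 of the 10 had reads, 751 in replicate 1 and 171 in replicate 2, in 186 models. The tissue was adrenal gland of female B6CASTF1/J mice, a hybrid of the C57BL/6J and CAST/EiJ strains, aged 36 days. Both libraries carry this same description and form 1 group, with no treatment or second genotype to compare. The labels disagree on the animals: 1 field numbers them alike and the donor identifier is the same, while another field numbers them apart and they are separate biological replicates and biosamples. Thus every spread and p-value below measures these 2 libraries and may be technical. Replicate 1 was made from 1 µg of RNA, and no quantity is given for replicate 2.

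The capsule is a thin sheet of fibroblast-like cells around the steroid-producing cortex. Its cells deposit fibrillar collagen and small leucine-rich proteoglycans, and they also send signals: R-spondin 3 raises WNT signalling in the outermost cortex, and hedgehog ligand from the cortex is received by Gli1-expressing capsule cells that can give rise to cortical cells. PDGF receptors mark fibroblasts and the mural cells of vessels, and Nr2f2 encodes an orphan nuclear receptor of mesenchymal and venous cells.

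Each read is the sequence of a cDNA, and whether copies made by amplification were removed is not stated in the sources used here. A level is given as reads per 1000000 reads of annotated genes (CPM), which is not divided by transcript length. Annotated genes had 1144572 reads in replicate 1 against 414588 in replicate 2, so that 1 read equals 0.874 CPM and 2.41 CPM, and a count of 0 allows up to 3 reads, 2.62 CPM and 7.24 CPM. The libraries held reads of both cortex and medulla: 7 steroidogenic genes (highest Cyp11a1, Cyp21a1 and Star) summed to 54747 and 71924 CPM and 6 genes of the medulla (highest Chga, Chgb and Th) to 9957 and 6790 CPM. Against these the 10 genes of the capsule and stroma summed to 656 and 412 CPM. Levels come from bulk tissue, where fewer cells of a type and less RNA per cell cannot be told apart.

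The collagens have annotated transcripts of similar length and exon number. Col1a1-201 on chromosome 11 (94936224 to 94953042, plus strand, mm10) has 51 exons and 5930 bp, Col1a2-201 on chromosome 6 (4505493 to 4541544, plus strand) has 52 exons and 5348 bp, and Col3a1-201 on chromosome 1 (45311538 to 45349706, plus strand) has 51 exons and 5564 bp. Many of their exons are exactly 54 bp, 21 in Col1a1, 24 in Col1a2 and 24 in Col3a1. Of these, 21, 23 and 24 begin with a glycine codon and repeat it every 9 bp. The first such exon of each transcript is printed because it shows the repeated Gly-X-Y unit of the triple helix that makes these transcripts long. Glycine codons are in capitals.
Col1a1 exon 8: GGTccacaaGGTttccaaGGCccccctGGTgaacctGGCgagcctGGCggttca
Col1a2 exon 8: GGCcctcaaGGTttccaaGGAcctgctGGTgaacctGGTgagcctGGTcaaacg
Col3a1 exon 6: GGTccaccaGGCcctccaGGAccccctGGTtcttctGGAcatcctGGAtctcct
The exons lie at chr11:94939904-94939957, chr6:4515481-4515534 and chr1:45325360-45325413, each holds 6 glycine codons, and the sequences were read from GENCODE M21 transcripts.

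The fibrillar collagens held most of these reads, 454 of 751 reads (60.5%) in replicate 1 and 102 of 171 (59.7%) in replicate 2. Col3a1, which encodes type III collagen of pliable tissue and vessel walls, was the highest of the 10 genes, at 278 CPM (318 reads) in replicate 1 and 171 CPM (71 reads) in replicate 2. Col1a1, for the major chain of type I collagen, stood at 84.7 CPM (97 reads) and 43.4 CPM (18 reads). Col1a2, for its partner chain, stood at 34.1 CPM (39 reads) and 31.4 CPM (13 reads). Thus the order Col3a1, Col1a1, Col1a2 was the same in both libraries. Reads of Col3a1 outnumbered those of Col1a1 3.28-fold (exact 95% interval 2.60 to 4.16) in replicate 1 and 3.94-fold (2.33 to 7.03) in replicate 2. Type I collagen is a trimer in which the chain from Col1a1 is in excess, but read counts do not measure protein chains. Over reads of all classes, the ratio of Col1a1 to Col1a2 reads was 2.49 (1.70 to 3.71) in replicate 1. In replicate 2 it was 1.39 (0.641 to 3.07), an interval that includes 1, so an excess was not detectable at that depth. The ratio depends on the reads counted: among full-length reads, defined further on, Col1a1 had 60 and 9 and Col1a2 had 2 and 0.

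Dcn, for decorin, which binds collagen fibrils and limits their thickness, was second of the 10, with 149 CPM (171 reads) in replicate 1 and 89.2 CPM (37 reads) in replicate 2. Lum, for the related lumican, was far lower at 14.9 CPM (17 reads) and 12.1 CPM (5 reads). Dcn reads outnumbered Lum reads 10.1-fold (6.10 to 17.7) and 7.40-fold (2.90 to 24.1).

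Of the regulators, Nr2f2 was the highest, with 69.9 CPM (80 reads) in replicate 1 and 31.4 CPM (13 reads) in replicate 2. Rspo3 stood at 16.6 CPM (19 reads) and 19.3 CPM (8 reads). Pdgfrb gave 6.99 CPM (8 reads) and 4.82 CPM (2 reads), the second value under that of 3 reads. Pdgfra gave 1.75 CPM (2 reads) and 9.65 CPM (4 reads), and its replicate 1 value was also under that of 3 reads. No read of Gli1 was found in either library, which allows up to 2.62 CPM in the deeper one.

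**Figure D1:**
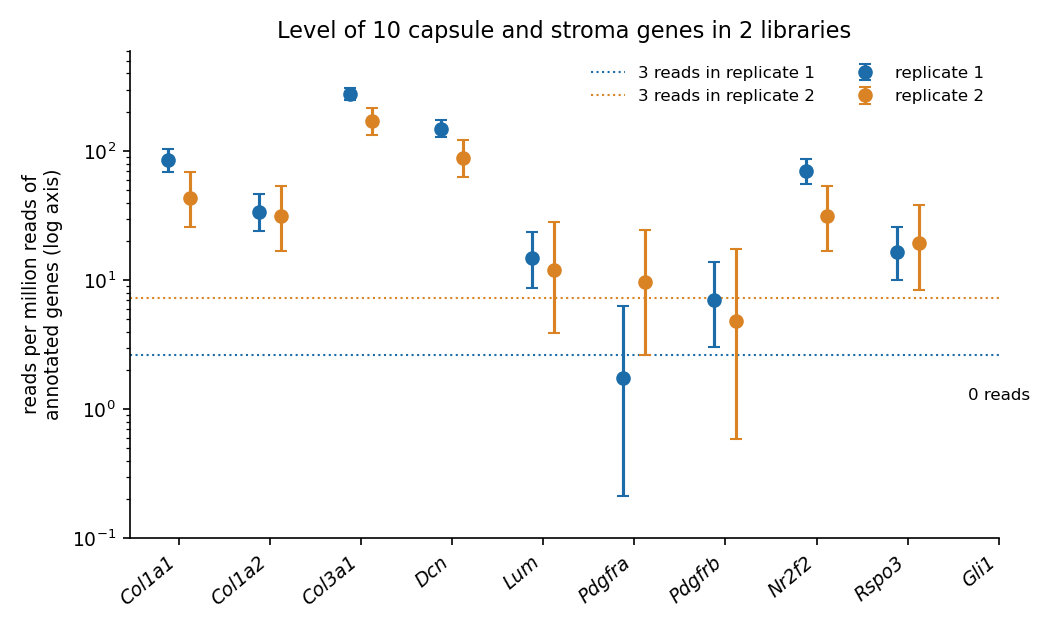
Level of the 10 genes (CPM, log axis) in replicate 1 (blue) and replicate 2 (orange), with exact 95% Poisson intervals that cover counting error only. Dotted lines mark the level of 3 reads, and Gli1 had 0 reads in both libraries. Col3a1 and Dcn lie highest in both, and the intervals of Col1a2, Lum, Rspo3, Pdgfrb and Pdgfra overlap between the libraries.

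Ranked by mean level over both libraries, the order was Col3a1 (224 ± 75.4 CPM, SD, n = 2), Dcn (119 ± 42.5), Col1a1 (64.1 ± 29.2), Nr2f2 (50.6 ± 27.3), Col1a2 (32.7 ± 1.92), Rspo3 (17.95 ± 1.91), Lum (13.5 ± 1.98), Pdgfrb (5.91 ± 1.53), Pdgfra (5.70 ± 5.59) and Gli1. Neighbours were often closer than their spread. Col1a1 and Nr2f2 differed by less than either SD, as did Nr2f2 and Col1a2 by less than the SD of Nr2f2, and the Poisson intervals of Rspo3, Lum and Pdgfrb overlapped in sequence in replicate 1.

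Differences between the libraries were tested gene by gene over the whole table, by a two-sided exact binomial test with Benjamini-Hochberg adjustment over 9885 genes. Of these, 14.0% differed at an adjusted p under 0.05, 7.86% higher and 6.13% lower in replicate 2. Among the 8 capsule and stroma genes with enough reads, 1 was called lower in replicate 2 and none higher, a share close to that background. The call was Col3a1, with a log2 ratio of replicate 2 to replicate 1 of -0.62 and an adjusted p of 0.00825 by the exact binomial test. Dcn (-0.67, adjusted p = 0.0593, exact binomial test) and Nr2f2 (-1.06, adjusted p = 0.0594) lay just above the threshold of 0.05, and Col1a1 had -0.88 (adjusted p = 0.0809). Without Genomic reads, a class described further on, the Nr2f2 ratio was -0.13 (adjusted p = 0.991, exact binomial test). Ratios of Col1a2 (-0.05), Lum (-0.21), Pdgfrb (-0.40) and Rspo3 (0.27) had adjusted p-values of 0.884 or more. The median log2 ratio was -0.51 over the 8 genes and -0.01 over all genes tested.

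The Col3a1 call compares the reads of these libraries and rests on counting error alone. An edgeR exact test with a dispersion between the libraries (coefficient of variation 30.7%) gave it an adjusted p of 1 and called 28 of 9885 genes in place of 1383. That dispersion was estimated from the same 2 libraries, so the test has to call fewer genes, and it says nothing on whether the difference would recur. Skeletal muscle genes moved in the same direction by far more: 7 of 8 listed genes (highest Acta1, Ckm and Atp2a1) had reads in replicate 1, with a sum of 921 CPM, while replicate 2 held 12.1 CPM, with Atp2a1, Tnnc2, Tnnt3, Tcap and Myh4 at 0. All 6 tested muscle genes were lower in replicate 2, against 6.13% of all genes tested. The part of muscle in the result for Col3a1 was not tested.

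Several genes of collagen modification and secretion were lower in replicate 2. Of 16 listed genes, 13 were tested, and 6 were lower and 1 was higher in replicate 2, against 6.13% lower and 7.86% higher of all genes tested. Their median log2 ratio was -0.85. P4hb, for the beta subunit of prolyl 4-hydroxylase that is also a general disulfide isomerase, was at 965 and 391 CPM (log2 ratio -1.23). Serpinh1, for the collagen chaperone of the endoplasmic reticulum, was at 658 and 309 CPM (-1.02). Pcolce, for an enhancer of procollagen cleavage outside the cell, went the other way, from 826 to 1208 CPM (0.62). All 3 had adjusted p-values of 2.2e-12 or less in the exact binomial test.

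The calls among the other matrix genes were all higher in replicate 2, against 7.86% higher and 6.13% lower of all genes tested. Of 15 other collagen genes 8 were tested, and 2 were higher and none lower in replicate 2: Col4a2 at 121 and 244 CPM (1.07) and Col4a1 at 149 and 205 CPM (0.53), which encode the network collagen of basement membranes. Col5a3, the third of the highest, stood at 163 and 171 CPM. Of 8 other small leucine-rich proteoglycans 3 were tested and Bgn, for biglycan, was higher, at 62.9 and 113 CPM (0.91). Prelp (15.7 and 16.9 CPM) and Ogn (14.0 and 4.82 CPM) did not pass the test. Among 17 other matrix genes 12 were tested and 1 was higher, Sparc, for a secreted collagen-binding glycoprotein, at 2256 and 2583 CPM (0.27). Timp3 (108 and 72.4 CPM) and Fbln5 (73.4 and 33.8 CPM) followed it in level without passing. These calls depend on the scaling: with total reads or DESeq2 size factors in place of TMM, Col4a1 was no longer called, and Fbln5 and Mgp, for matrix Gla protein, were called lower, 2 of the 12 (both genes named for this after their values were seen).

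Most of the listed PDGF ligand genes had more reads than the receptor genes. Pdgfd (50.7 and 41.0 CPM), Pdgfa (45.4 and 26.5 CPM) and Pdgfb (27.1 and 16.9 CPM) each had more reads than either receptor in both libraries, though replicate 2 held only 7 reads of Pdgfb against 4 of Pdgfra. The fourth ligand gene, Pdgfc, had 4 and 0 reads, fewer than Pdgfrb in both libraries (named after its values were seen). In all, 0 of 3 ligands tested were called between the libraries, against 14.0% of all genes tested.

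In the hedgehog pathway, the co-receptor gene Gas1 was the highest of 13 listed genes, at 333 and 164 CPM, and was lower in replicate 2 (log2 ratio -0.95, adjusted p = 2.9e-06, exact binomial test). Smo, for the signal transducer, stood at 40.2 and 57.9 CPM, and Boc, for another co-receptor, at 38.4 and 55.5 CPM. Of 6 genes tested, 1 was lower and 1 was higher, against 6.13% lower and 7.86% higher of all genes tested. The higher gene was Sufu (6 and 10 reads), named here after its values were seen. Besides Gli1, no read was found of Gli2, Gli3 or Ihh, which were named for the same reason.

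Around Rspo3, 7 of 15 listed R-spondin and WNT genes were tested and 1 was higher in replicate 2, against 7.86% of all genes tested. The gene was Rnf43 (3 and 9 reads), also named after its values were seen. Wnt4, a ligand of the outer cortex, stood at 366 and 299 CPM, Ctnnb1, for beta-catenin, at 148 and 116 CPM, and Lgr4, for a receptor of R-spondins, at 66.4 and 48.2 CPM. Rspo2 and Rspo4 had 0 reads. Of 6 other capsule transcription factor genes 3 were tested and none was called, with Gata6 at 48.9 and 53.1 CPM, Tcf21 at 55.0 and 43.4 CPM and Nr2f1 at 11.4 and 7.24 CPM, and Wt1 at 0.

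Markers of the other cells of a dissected gland were read in the same way, beside 7.86% higher and 6.13% lower of all genes tested. Pericyte and smooth muscle genes (Tagln, Kcnj8 and Rgs5 highest, 0 of 4 called) summed to 120 and 116 CPM, endothelial genes (Plvap, Egfl7 and Emcn, 1 of 7 lower, Emcn) to 570 and 543 CPM, and macrophage genes (Cd74, Lyz2 and C1qa, 0 of 5) to 442 and 359 CPM. Adipocyte genes (Car3, Cfd and Fabp4, 4 of 8 higher) reached 7322 and 10483 CPM, above the sum of the 10 capsule and stroma genes in both libraries. The fourth was Cidea, named after its values were seen, and 3 of the 8 were called higher with total reads and 2 with DESeq2 size factors in place of TMM, against 7.86% of all genes in the test as reported. The stroma of fat also expresses collagen genes, and the part of these cells in the levels above was not tested.

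Each read had been placed in a class by comparison with GENCODE transcripts. Known reads hold every intron of an annotated transcript, or are assigned to an annotated transcript of 1 exon. NIC reads join annotated splice sites in a new combination, and NNC reads use a splice site outside the annotation. ISM reads hold a consecutive part of an annotated intron chain and are thus incomplete. Genomic reads are unspliced or overlap introns. Known, NIC and NNC reads were counted as full-length. Over the 10 genes 524 of 751 reads (69.8%) were full-length in replicate 1 and 108 of 171 (63.2%) in replicate 2, against 81.9% and 75.7% of all reads of annotated genes.

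Despite like lengths, the collagens differed widely in completeness. Col3a1 had 261 full-length reads of 318 (82.1%, Wilson 95% interval 77.5 to 85.9%) in replicate 1 and 51 of 71 (71.8%, 60.5 to 81.0%) in replicate 2. Col1a1 had 60 of 97 (61.9%, 51.9 to 70.9%) and 9 of 18 (50%, 29.0 to 71.0%). Col1a2 had 2 of 39 (5.13%, 1.42 to 16.9%) and 0 of 13, which allows a share of up to 23.1%. In replicate 1 the 3 intervals did not overlap, while in replicate 2 those of Col3a1 and Col1a1 did. No read of Col1a2 was Known in either library, and 1 of its 2 full-length reads was an NNC model of only 30 exons, so that its count as full-length comes from a splice site 3 bp from an annotated one. The 60 full-length reads of Col1a1 likewise included NNC models of 29 and 35 exons, with 1 read each.

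Dcn was read nearly whole, while Nr2f2 and the receptor genes were not, and Lum and Rspo3 could not be told apart. Dcn-201, of 8 exons and 1758 bp, had 158 full-length reads of 171 (92.4%) and 34 of 37 (91.9%). Lum-201, of 3 exons and 2448 bp, had 14 of 17 (82.4%) and 4 of 5 (80.0%). Rspo3-201, of 5 exons and 3085 bp, had 13 of 19 (68.4%) and 5 of 8 (62.5%). Nr2f2 (Nr2f2-201, of 3 exons and 4222 bp) had 15 of 80 (18.8%) and 5 of 13 (38.5%). Of these full-length reads, 9 and 3 were of models with more than 1 exon, and the rest were of annotated retained-intron transcripts of 1 exon. The receptors, with 23 exons each in Pdgfra-201 (6549 bp) and Pdgfrb-201 (5407 bp), gave 1 full-length read among 16, an NNC read of Pdgfrb with all 23 exons in replicate 1.

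**Figure D2:**
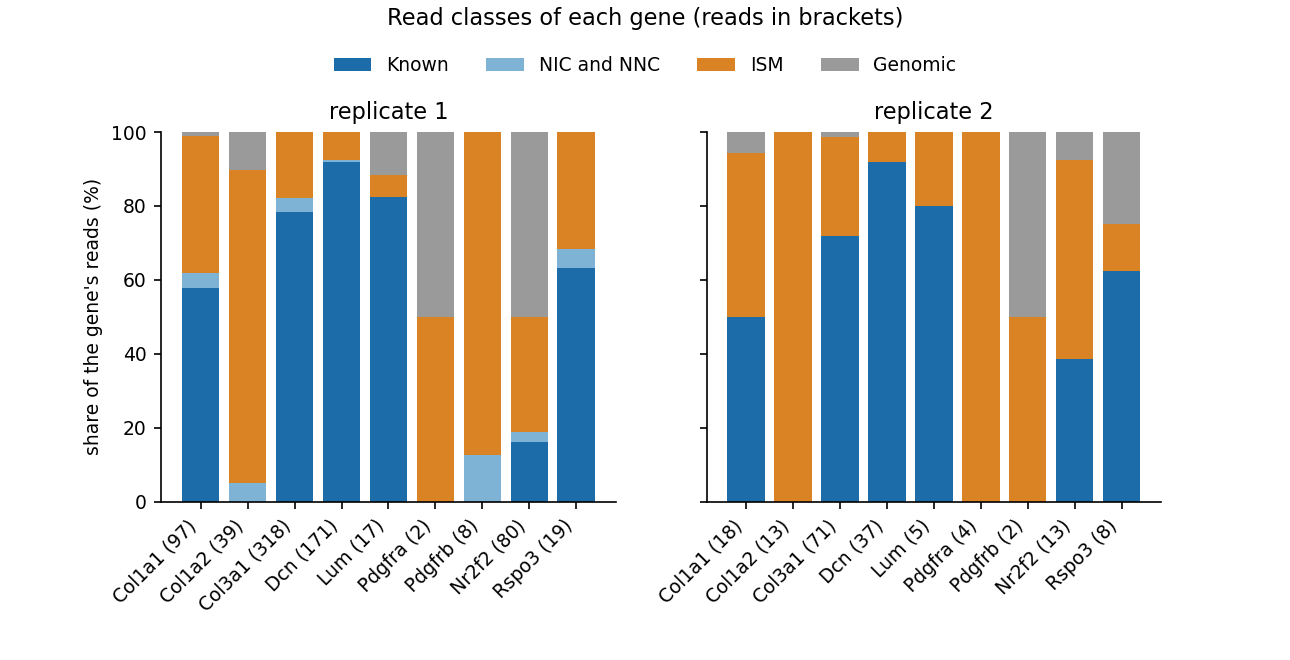
Share of each gene's reads (%) by class in replicate 1 (left) and replicate 2 (right), with the number of reads in brackets. Known reads fill most of the bars of Dcn, Lum and Col3a1, ISM reads nearly all of Col1a2, and Genomic reads 40 of the 80 Nr2f2 reads of replicate 1. Bars of fewer than 10 reads are imprecise.

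Genes of the same length class, by annotated transcript length, and with at least 20 reads in a library gave the background. Over 5 kb the median full-length share was 68.8% over 543 genes in replicate 1 and 70.1% over 191 genes in replicate 2. Col3a1 was above the median in both, with 71.1% and 51.8% of the class below it. Col1a1 was below it, with 42.4% and 29.3% of the class below, the second from a share of 18 reads only. Only 6.26% of the class lay below Col1a2 in replicate 1. The placing depends on the length used. By the inner 3′ ends described further on, the 3 collagens would fall in the class of 3 to 5 kb. Its medians were 77.8% and 76.9%, so Col3a1 would lie above the median in replicate 1 and below it in replicate 2. Nr2f2, in the class of 3 to 5 kb with a median of 77.8%, had 4.18% of 1770 genes below it in replicate 1. By its inner end Nr2f2 would fall in the class of 2 to 3 kb, with a median of 86.1% in replicate 1. Its share depends on the reads counted: without Genomic reads it was 37.5% and 41.7% in replicates 1 and 2, and with spliced opposite-strand reads, described further on, 30.7% and 56%.

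**Figure D3:**
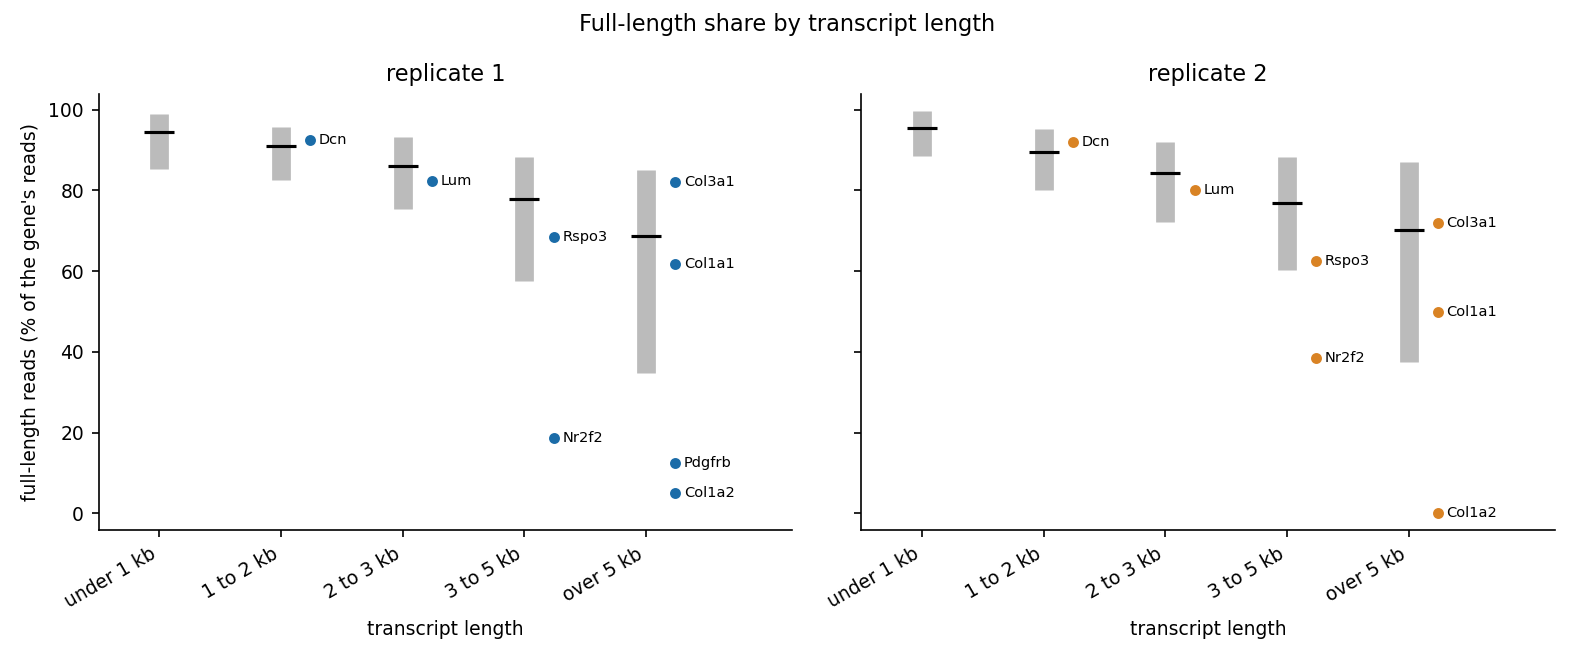
Full-length reads as a percentage of a gene's reads (vertical axis) by length class of its transcript (horizontal axis) in each library. Grey bars span the quartiles and black lines the median of genes with at least 20 reads, and coloured points are the capsule and stroma genes with at least 5 reads. Dcn and Lum lie by their medians, while Col1a2 lies at 5.13% and 0% under medians of 68.8% and 70.1%.

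Between the libraries, the full-length share was tested by a two-sided Fisher's exact test in 3694 genes with at least 20 reads in each, of which 14.4% differed at an adjusted p under 0.05, 3.68% with a higher and 10.7% with a lower share in replicate 2. Only Col3a1 and Dcn had enough reads, and 0 of 2 were called. The Col3a1 share differed by -10.24 percentage points (adjusted p = 0.249, Fisher's exact test) and the Dcn share by -0.51 (adjusted p = 1). With at least 10 reads in each library Col1a1, Col1a2 and Nr2f2 could be tested too, and none of the 5 was called. Under that filter 536 of 5758 genes were called, so 0 of 5 is close to the background.

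Incomplete reads of the collagens lacked the 5′ side. A read was scored by whether it held the first and the last junction of the reference transcript, not by its ends. At both ends, 149 of 179 ISM reads of the 10 genes in replicate 1 lay more than 100 bp from the reference end. In replicate 2 it was 47 of 57. Of the ISM reads in replicate 1, the last but not the first junction was held by 31 of 36 in Col1a1, 28 of 33 in Col1a2 and 52 of 57 in Col3a1. In replicate 2 it was 8 of 8, 7 of 13 and 17 of 19. Most of the rest had 1 exon and no junction, while in replicate 1 there were 3 Col3a1 reads that lacked only the 3′ side and 1 Col1a2 read that lacked both. Over the 10 genes 151 of 179 ISM reads (84.4%, Wilson 95% interval 78.3 to 88.9%) lacked the 5′ side alone in replicate 1 and 43 of 57 (75.4%, 62.9 to 84.8%) in replicate 2. Over all annotated genes the files' own subtype gave 62.2% and 55.5% of ISM reads as multi-exon reads of this kind, and 14.9% and 2.93% as reads that lack the 3′ side.

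Rspo3 and the receptor genes did not show this pattern in replicate 1. The single ISM read of Pdgfra lacked the 3′ side, and of 7 for Pdgfrb 2 lacked the 5′ side, 1 the 3′ side and 4 had 1 exon. For Rspo3, 5 of its 6 ISM reads lacked the 3′ side: they shared 1 model with the first 4 of 5 exons, 1173 bp long, that stopped at the end of exon 4 and held none of the 1912 bp last exon. Its single ISM read of replicate 2 lacked the 5′ side.

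How far 5′ each collagen read extended was followed exon by exon among reads that held part of the last exon. In replicate 1, exon 40 or further was reached by 98.4% of 315 Col3a1 reads, 84.4% of 96 Col1a1 reads and 58.8% of 34 Col1a2 reads. Exon 26, near the middle, was reached by 93.3%, 70.8% and 26.5%. Exon 1 was reached by 258 Col3a1 reads (81.9%, Wilson 95% interval 77.3 to 85.8%), 58 Col1a1 reads (60.4%, 50.4 to 69.6%) and 1 Col1a2 read (2.94%, 0.521 to 14.9%). The order was the same in replicate 2, at 72.9% of 70, 52.9% of 17 and 0 of 13 reads. Starts were scattered, counted over reads of every class but Genomic, so that some NIC or NNC reads are among them. Col3a1 reads of replicate 1 began at 30 different exons between the first and the last, those of Col1a1 at 21 and those of Col1a2 at 20.

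**Figure D4:**
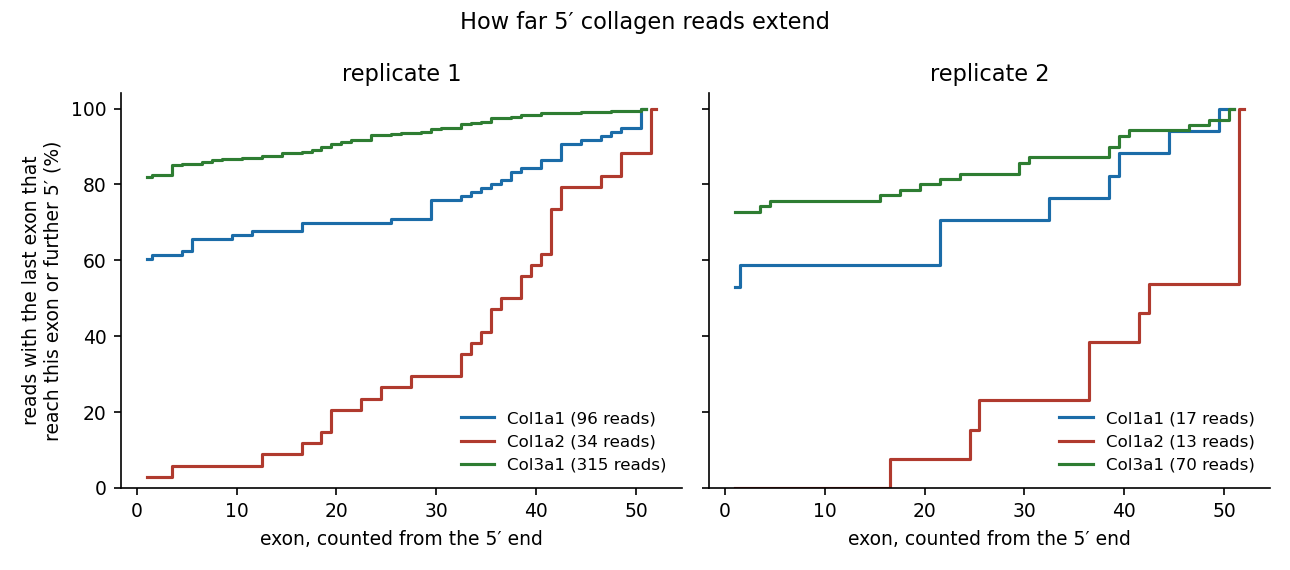
Percentage of collagen reads holding part of the last exon that reach a given exon or further 5′ (vertical axis), by exon counted from the 5′ end (horizontal axis), in replicate 1 (left) and replicate 2 (right). Col3a1 (green) stays above 70% to exon 1, Col1a1 (blue) ends at 60.4% and 52.9%, and Col1a2 (red) drops through the length of the transcript to 2.94% and 0%.

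Some incomplete models were found in both libraries. Of the multi-exon ISM intron chains of Col3a1, 10 were found in both libraries, which is 29.4% of the chains in replicate 1 and 71.4% of those in replicate 2. For Col1a1 it was 4 (19.05% and 57.1%) and for Col1a2 5 (22.7% and 83.3%). A chain that lacks only the 5′ side is set by its start exon, so the possible chains are limited and libraries can share them by chance. Neither the overlap due to chance nor the share over all genes was computed, so these counts do not show preferred stops.

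The ends of Known reads cannot be seen in these files: all 19 Known models carry exactly the exons of the annotation. The 3′ ends of the other models can, and those of the collagens lay well inside the annotated last exon. All 40 Col1a1 reads of such models in replicate 1 and all 8 in replicate 2 ended at position 94951846 of chromosome 11, 1196 bp before the annotated end. For Col1a2, 31 of 34 and 13 of 13 reads ended 586 bp and 582 bp before the annotated end on chromosome 6, at 4540958 and 4540962. For Col3a1, 65 of 66 and 18 of 19 reads ended 688 bp and 686 bp before the annotated end on chromosome 1, at 45349018 and 45349020. A read that starts at exon 1 and stops there would span 4.73 kb in Col1a1, 4.76 kb in Col1a2 and 4.88 kb in Col3a1. One end per gene and library was used by many models, so an end is a position to which the processing may have joined nearby reads. Dcn differed, with 12 of 13 and 3 of 3 reads ending at the annotated position in replicates 1 and 2, as did the single reads of Lum in each library. The ends of Nr2f2 lay inside the last exon too and are given with that gene.

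The bases around these inner ends are printed because the collagens differ there. In Col1a1 and Col1a2 capitals mark the 20 bases that follow the end in the transcript. In Col3a1 they mark AATAAA, the usual signal for cleavage and addition of a poly(A) tail, and the printed bases stop at the end of the model.
Col1a1: tcaaccttacCAAAAAAGAAAAAAAAAAAA
Col1a2: ttgtaagaaaACCCAAATAAAAATTGAAAA
Col3a1: aataAATAAAcgtcaacacttttatgat
These stretches of the 3′ untranslated region lie at chr11:94951837-94951866, chr6:4540949-4540978 and chr1:45348991-45349018, plus strand, and come from GENCODE M21 transcripts, with the ends of replicate 1. Col3a1 held AATAAA starting 24 bases before its end in replicate 1 and 26 in replicate 2, and 5 and 4 of its next 20 bases were A. Neither AATAAA nor ATTAAA, searched on the transcript strand, was found in the last 40 bases before the end in Col1a1 or Col1a2, although AATAAA is among the printed bases after the Col1a2 end. Instead 18 of the next 20 bases were A in Col1a1, and 13 and 15 of 20 in Col1a2 for the ends of replicates 1 and 2. Among 47847 annotated last exons of protein-coding transcripts, the final 40 bases held AATAAA in 41.5% and either motif in 51.6%, against 1.93% and 3.38% of other 40-base windows there. At least 13 A in 20 bases were found in 0.629% of 20-base windows of these exons and at least 18 in 0.0190%. How the first strand was primed is not stated in the labels used, and the part of stretches of A in placing these ends was not tested.

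Only Dcn had at least 5 reads of more than 1 annotated isoform in a library. It is annotated on chromosome 10 (97479609 to 97518143, plus strand) with alternative first exons that splice to the same exon 2. The junctions are printed to show the difference, with the last 15 bases of exon 1 in capitals and the first 15 of exon 2 in lower case.
Dcn-201: TACCCGGATTAAAAGgtcgtgaaaatacat
Dcn-202: AAACTTCTTCAGAAGgtcgtgaaaatacat
Exon 1 lies at chr10:97479609-97479789 in Dcn-201 and chr10:97482367-97482547 in Dcn-202, both 181 bp, and exon 2 at chr10:97483339-97483558. Dcn-201 had 134 reads in replicate 1 (84.8% of full-length Dcn reads, Wilson 95% interval 78.4 to 89.6%) and 28 in replicate 2 (82.4%, 66.5 to 91.7%). Dcn-202 had 23 (14.6%) and 6 (17.6%). The leading isoform was tested by Fisher's exact test in 3005 genes that had 20 or more full-length reads in both libraries, of which 1.03% differed, 0.266% with a higher and 0.765% with a lower share in replicate 2. Neither Dcn nor Col3a1 was called, and the Dcn-201 share differed by -2.46 percentage points (adjusted p = 1, Fisher's exact test).

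For Col3a1, Col3a1-201 took 249 of 261 full-length reads in replicate 1 (95.4%) and all 51 in replicate 2. The other 12 reads were NIC or NNC, 3.77% of the gene's reads, and none of 71 reads was of this kind in replicate 2, which allows a share of up to 4.22%. Col1a1-201 took 56 of 60 and 9 of 9, Rspo3-201 12 of 13 and 5 of 5, and Lum-201 14 of 14 and 4 of 4. The NNC models of collagens used sites near annotated ones, 2 to 20 bp away in 4 models of Col1a1, 3 to 4 bp in 2 of Col1a2 and 3 to 21 bp in 9 of Col3a1. Each held 1 or 2 reads in replicate 1, and no NNC chain of the collagens was found in both libraries.

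Nr2f2 stood apart in both its classes and its strand. The gene lies on chromosome 7 (70351944 to 70366735, minus strand). Its full-length reads were spread over Nr2f2-202 (4 and 0), the retained-intron transcript Nr2f2-203 (4 and 2) and Nr2f2-201 (3 and 3). Its most read spliced model was an ISM of 2 exons, with 25 and 7 reads, found with the same intron in both libraries, that lacked the first exon and ended 1498 bp before the annotated end. An unspliced Genomic model at 70360593 to 70361644, just upstream of the Nr2f2-201 start and in the first intron of Nr2f2-202, held 32 of 80 Nr2f2 reads of replicate 1 but 0 of replicate 2. Its inner end is the first base of Nr2f2-201. An opposite-strand model with 5 reads in replicate 2 both starts and ends at that base. Such an end may be a position to which the processing joined nearby reads. Without Genomic reads the level was 34.9 CPM (40 reads) in replicate 1 and 28.9 CPM (12 reads) in replicate 2, and the log2 ratio was -0.13 in place of -1.06.

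The inner end of the Nr2f2 model is printed with its motif in capitals, because it can be set beside the collagen ends.
Nr2f2: agaaATTAAAatattatttgatatctg
The bases lie at chr7:70353442-70353468, minus strand. The end was the same in both libraries, with 26 reads in replicate 1 and 7 in replicate 2. ATTAAA started 23 bases before it, and 3 of the next 20 bases were A.

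On the opposite strand of Nr2f2 the files list unannotated genes, with 149 reads in 7 models in replicate 1 and 25 reads in 4 models in replicate 2, more than Nr2f2 itself had. Of these, 70 and 12 reads were spliced. Every intron of these spliced models had the same boundaries as an annotated Nr2f2 intron. With these reads counted as Nr2f2, a setting chosen after seeing the data, the gene stood at 131 CPM (150 reads) and 60.3 CPM (25 reads), with a log2 ratio of -1.04 and an adjusted p of 0.00455 in the exact binomial test. The remaining 79 and 13 reads of the opposite strand had no intron, and their strand cannot be checked in this way.

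**Figure D5:**
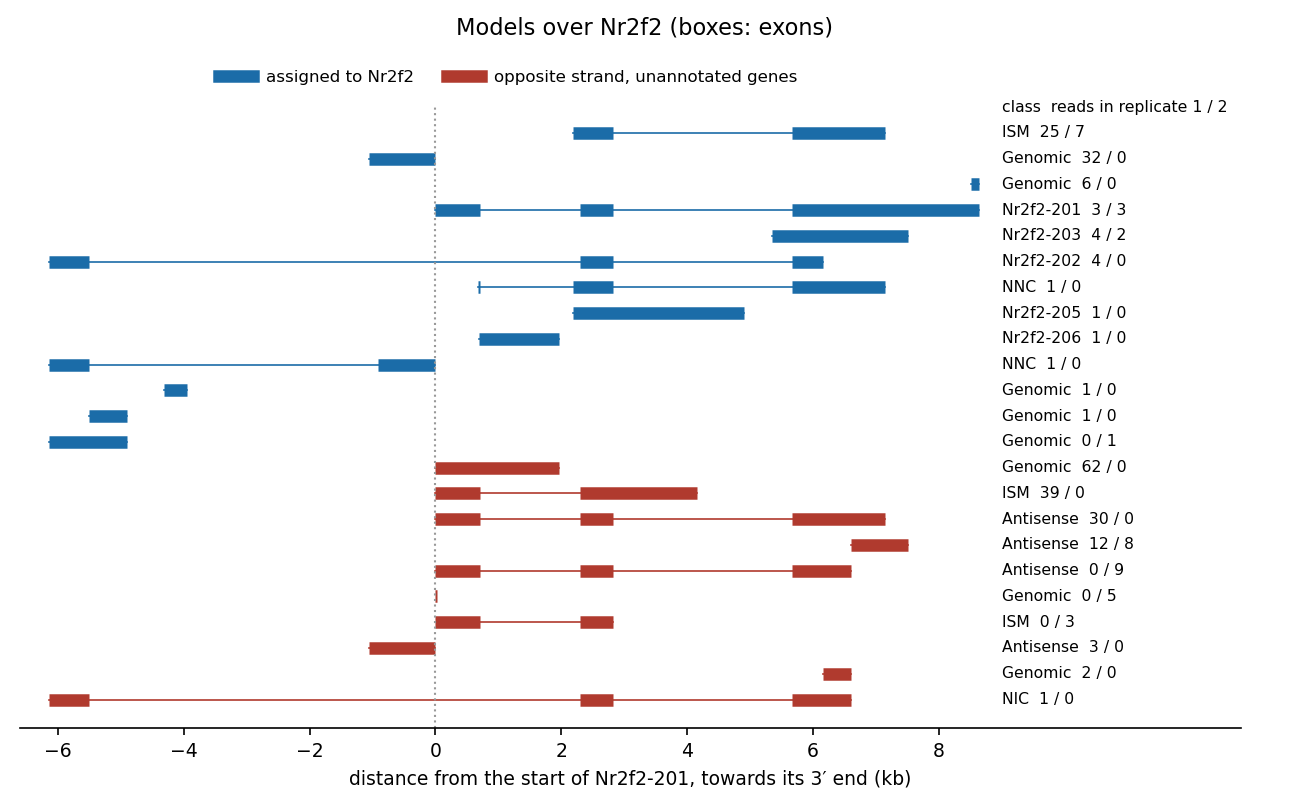
Transcript models over Nr2f2, drawn by distance from the start of Nr2f2-201 (kb, horizontal axis), with exons as boxes, the class of each model and its reads in replicates 1 and 2 at the right. Models assigned to Nr2f2 are blue and those of unannotated genes on the opposite strand are red. The red spliced models with 30, 39 and 9 reads share the intron boundaries of the blue Nr2f2-201, and the Genomic model with 32 reads lies left of its start.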

How the data were processed

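Long-read RNA-seq was done on adrenal gland of female B6CASTF1/J mice, with 2 libraries in 1 group. Per the labels' protocols, reads went through the ENCODE long-read pipeline for mouse. Per the file headers, the authors deposited whole-number counts of reads per transcript model, compared with GENCODE M21 on mm10, with model classes from TALON, and no model without a read is listed. Exon numbers, lengths and exon positions, other values, were taken as deposited. The aligner, its version and any filter are not stated in these sources.

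The counts were summed per gene and scaled to 1000000 reads of annotated genes, without spike-ins (2.12% and 3.65% of reads) or loci outside the annotation (4.35% and 4.98%). Full-length means Known, NIC or NNC. Reads per gene were tested between libraries by a two-sided exact binomial test, given TMM-scaled library sizes (edgeR 4.0.16, factors 1.03 and 0.976), in genes with at least 10 reads in total, and log2 ratios used a pseudocount of 1. Shares were compared by two-sided Fisher's exact test with at least 20 reads (or full-length reads) in each library. Benjamini-Hochberg adjustment ran over all genes tested, with a threshold of 0.05. The binomial and Fisher's exact tests were tested on simulated data. Intervals are 95% Wilson for shares and exact Poisson or binomial for levels and ratios, and these, the tests and the 3-read floor cover counting error only. Sequences came from GENCODE M21 transcripts.

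All 10 genes are named whatever their values, and of every other list the 3 with the highest mean level. The result of 1 marker list is not reported here. Isoforms are named for genes with at least 5 full-length reads, the 3 most read of each. The 10 genes, the lists and the tests were chosen with earlier results of these data known. Alternatives were other read classes, denominators, scalings (DESeq2 1.42.0 size factors), filters, depth, an edgeR test with a dispersion estimated from both libraries as 1 group, and each library left out.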

Additional observations from a re-analysis of the deposited data

Results flagged for a closer look

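Reads on the opposite strand of 2 of the 10 genes stood above the level of 3 reads, in data that the comparisons do not use. Over Nr2f2 there were 149 reads in replicate 1 and 25 in replicate 2. Over the end of Col1a1 there were 12 reads in replicate 1, in 1 unspliced model that reaches its annotated end, and 1 read in replicate 2. Across all genes, spliced reads of unannotated antisense genes numbered 2452 and 910, and in 1049 (42.8%) and 421 (46.3%) of them every intron was an annotated intron of the other strand and of no gene on their own. These reads lay over 221 and 75 genes, among which Nr2f2 ranked 5 and 7 by reads. How the orientation of a read was set is not stated in the labels or headers used, and its part in these counts was not tested.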

How the results depend on the processing

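The summed level of 534 CPM (mean of both libraries) moved by less than the SD between them under the alternative read classes and denominators tried, and was 412 to 656 CPM with either library left out. Single genes moved more: with full-length models only, the mean level of Col1a2 went from 32.7 to 1.07 CPM, Nr2f2 from 50.6 to 16.0, Rspo3 from 17.95 to 14.9, Pdgfrb from 5.91 to 0.534 and Pdgfra from 5.70 to 0, and Col1a2 fell below Rspo3 and Lum in the order. The number of genes called between the libraries, 1383, fell to 28 in the edgeR exact test (465 at an unadjusted p under 0.05). DESeq2 size factors moved the split of calls from 777 higher and 606 lower to 610 and 794, and the median log2 ratio of all genes from -0.01 to -0.11. In place of 1 of 8 capsule and stroma genes tested, 3 of 8 were called with total reads in place of TMM, against 13.9% of all genes tested. With DESeq2 size factors it was 4 of 8 against 14.2%, and with at least 20 reads 3 of 7 against 18.1%. With opposite-strand reads counted as Nr2f2 it was 2 of 8 against 14.0%. In the edgeR exact test, where the adjusted p of Col3a1 was 1, it was 0 of 8 against 0.283%. Genes that joined Col3a1 were Dcn and Nr2f2 under the first 3 of these settings and Col1a1 with DESeq2, all with Genomic reads counted. Directions that changed were of genes without a call in the test as reported: Col1a2 to 0.17 without Genomic reads and 0.17 with replicate 1 thinned, Lum to 0.018 without Genomic reads, Rspo3 to -0.055 without Genomic reads and -0.11 with replicate 1 thinned, Nr2f2 to 0.0075 with full-length reads only, and the difference in the Dcn full-length share to 0.079 percentage points with Known reads only.

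The full-length share over the 10 genes, 66.5%, became 73.6% with models of more than 1 exon only and 63.2 to 69.8% with either library left out. The share of ISM reads lacking the 5′ side alone, 79.9%, was 75.4 to 84.4% with either library left out. It became 14.1% when an end had to lie within 100 bp of the annotated one, since the collagen and Nr2f2 models end further than that before it. Calls on the leading isoform, 31, became 20 with Known reads only. Calls on the full-length share ranged from 430 to 536 around 533. No paired analysis was possible because there is 1 group. Genes under 10 reads were not tested.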
